A study of Mus musculus with 15 samples.

Results

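The proteasome genes of mouse brown adipose tissue were followed across genotype and housing temperature. Members were all rows of the expression table whose symbol begins with Psma to Psmg followed by a digit, a rule that uses names and no measured values. It found 50 of 24030 symbols, and 48 of them passed the filter on low counts that was applied to all genes. The 4 groups were tissue of mice with a brown-fat-specific knockout of DJ-1 (KO) kept at 29 °C (3 libraries), flox controls (WT) kept at 29 °C (4 libraries), KO kept at room temperature (4 libraries) and WT kept at room temperature (4 libraries). All were housed this way for 8 weeks. Age, sex, strain and the Cre driver are not given in the sources used here, and neither is any statement that the libraries of a group came from separate animals, so the tests weigh differences against library-to-library spread, which may be technical. RNA was sequenced as paired 150-base reads, and the values are estimated read counts per gene. Levels are given as CPM, the count of a gene relative to the TMM-scaled depth of its library. A gene was called in a comparison when its Benjamini-Hochberg adjusted p from edgeR's quasi-likelihood test, adjusted over all 15083 genes tested, was below 0.05. Fold changes are on the log2 scale and are followed by their standard error.

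The proteasome is the protease complex that degrades proteins tagged with ubiquitin. Its barrel, the 20S core, is built from alpha subunits (Psma genes), which form the outer rings and gate the entrance, and beta subunits (Psmb genes), among which Psmb5, Psmb6 and Psmb7 carry the catalytic sites. In cells exposed to interferon, Psmb8, Psmb9 and Psmb10 can take the places of Psmb5, Psmb6 and Psmb7 and form the immunoproteasome, which is known for making peptides for MHC class I. The 19S cap recognises and unfolds substrates with a ring of ATPases (Psmc genes) and non-ATPase subunits (Psmd genes). Alternative caps are the activators Psme1 and Psme2, which together form PA28, Psme3 and Psme4. Dedicated chaperones (Psmg1 to Psmg4, Psmd5, Psmd9 and Psmd10) help to assemble core and cap. In mouse brown fat, the transcription factor NFE2L1 is known to raise proteasome genes during cold adaptation.

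Park7, which encodes DJ-1, averaged 31.7 ± 5.46 CPM in KO and 118 ± 11.1 CPM in WT at 29 °C, and 28.2 ± 4.03 CPM in KO and 109.9 ± 1.66 CPM in WT at room temperature (SD, n = 3 for KO at 29 °C and n = 4 for the others), a fall in KO of 1.90 log2 units at 29 °C and 1.97 at room temperature (adjusted p = 1.5e-07 and 1.5e-07). Total counts were between 23977448 and 26789246 in 14 libraries and 38800967 in KO 29 °C replicate 1. That library was the highest of its group for 43 of the 48 members, and KO room-temperature replicate 2 was the highest of its group for 31. The brown fat marker Ucp1 averaged 7233 ± 1240.0 CPM in KO and 1019 ± 203 CPM in WT at 29 °C, and 7001 ± 2502 CPM in KO and 8602 ± 1022 CPM in WT at room temperature. Among marker lists, KO against WT at 29 °C had 7 of 12 brown adipocyte genes higher and 1 lower and 15 of 16 lymphocyte genes higher. It had 4 of 13 macrophage genes higher and 2 lower, all 10 endothelial genes lower and 0 of 10 muscle genes called. Of all genes tested, 24.7% were called higher and 20.0% lower. The macrophage list, at 30.8% higher and 15.4% lower, was near these shares. The summed level of the lymphocyte markers was 37.6 to 53.3 CPM in KO and 11.3 to 14.7 CPM in WT at 29 °C, and that of the macrophage markers 399 to 585 and 243 to 377 CPM. Endothelial markers summed to 652 to 898 CPM in KO and 1361 to 1969 CPM in WT at 29 °C. Mitochondrially encoded genes took 25.8 to 26.9% of counts in KO and 30.2 to 41.6% in WT at 29 °C. Muscle transcripts were high in 3 of the 29 °C libraries (KO replicates 2 and 3 and a WT library). The part of these shifts in the proteasome values was not tested. In bulk tissue, fewer cells of a type and less RNA per cell cannot be told apart.

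Members differed widely in level when read counts were divided by exon length. In WT at room temperature, Psmb3, a structural beta subunit, had the highest level of the constitutive beta subunits at 189.4 CPM per kilobase and Psmb1 the lowest at 25.0. The ranks rest on the exon length used, which was 3427 bases for Psmb1 and 766 to 1183 for the other constitutive beta subunits. Without division by length, Psmb1 averaged 85.7 CPM in this group, above Psmb2 at 68.2 CPM. Across the 19S non-ATPase subunits, the highest was Psmd8 at 65.8 CPM per kilobase and the lowest Psmd11 at 22.2. Assembly factors lay lower, with a median of 7.43 CPM per kilobase, and the inhibitor Psmf1 (PI31) had 4.04. Immunoproteasome subunits in WT at room temperature had a median of 7.38 CPM per kilobase. The 2 members that did not pass the filter were Psmb11, the beta subunit of the thymus, which had 1 count in each of 2 libraries and 0 in the other libraries, and Psma8, an alpha subunit of the testis, which had 2 to 6 counts in the WT libraries at 29 °C and at most 1 elsewhere. Psmc3ip fits the name rule but encodes a protein of meiotic recombination. It stayed between 1.17 and 1.50 CPM in the group means and was called in none of the 5 comparisons.

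At 29 °C, proteasome genes made up more of the counts in KO brown fat than in WT. The 44 proteasome members outside the immunoproteasome summed to 3251 to 3992 CPM in KO and 2640.0 to 2927 CPM in WT at 29 °C. Of the 48 members tested, 25 rose and 3 fell in KO, which is 58.3% called, against 44.7% of all genes tested. Members called higher made up 52.1%, against 24.7% of all genes, and members called lower 6.25%, against 20.0%. The median log2 difference was 0.32 over the members and 0.04 over all genes. With KO replicate 1 left out, 18 members were called higher and 4 lower. A fit of only these 7 libraries called 16 higher and 1 lower.

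All 7 alpha subunits tested rose in KO at 29 °C. The increase ran from 0.25 for Psma2 to 0.66 for Psma5 on the log2 scale. Psma4 averaged 108 ± 8.14 CPM in KO (n = 3) and 75.1 ± 4.11 CPM in WT (n = 4; adjusted p = 8.8e-05 by edgeR). The calls of Psma1, Psma2, Psma6 and Psma7 were lost without KO replicate 1 (adjusted p = 0.0842, 0.302, 0.0648 and 0.0542 by edgeR), and that of Psma2 also when each of 11 other libraries was left out in turn.

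The 7 constitutive beta subunits did not move together at 29 °C. Psmb2, Psmb3 and Psmb7 rose and Psmb4 fell, while Psmb1, Psmb5 and Psmb6 were not called. The catalytic subunit Psmb7, which cleaves after basic residues, measured 179, 135 and 130.3 CPM in KO and 96.6, 94.1, 72.1 and 78.4 CPM in WT at 29 °C. All KO libraries lay above all WT libraries, a log2 difference of 0.80 ± 0.12 (adjusted p = 6.8e-05 by edgeR). Psmb7 overlaps Nek6 on the opposite strand, and whether strand was used in counting is not stated. Psmb5, the chymotrypsin-like subunit, measured 177, 131 and 145 CPM in KO and 149, 124, 117 and 113 CPM in WT. Psmb6, the caspase-like subunit, measured 129, 98.4 and 107 CPM in KO and 125, 120.0, 109 and 99 CPM in WT. The groups overlapped for both, with log2 differences of 0.27 (95% interval 0.02 to 0.52) and -0.02 (-0.24 to 0.19). Psmb4, a structural subunit that completes the beta ring, measured 127, 102 and 103 CPM in KO and 137, 129, 141 and 123 CPM in WT, a log2 difference of -0.26 ± 0.09 (adjusted p = 0.0288 by edgeR). The highest KO library lay within the WT range, and the call was lost in 4 of the 15 fits that leave out 1 library, with adjusted p up to 0.137.

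Among the 19S non-ATPase subunits, 7 of 11 rose and none fell at 29 °C. The largest difference of any member was that of Psmd11, a lid subunit known from cell culture studies to stabilise the 26S particle. Psmd11 (chr11:80428615-80473248, plus strand, mm10) measured 57.1, 50.9 and 53.1 CPM in KO and 25.9, 30.1, 25.9 and 31.9 CPM in WT at 29 °C. KO libraries were all well above WT libraries, 1.89-fold higher (0.92 ± 0.10 on the log2 scale, adjusted p = 2.8e-06 by edgeR). Psmd12, its neighbour in the lid, measured 81.8, 82.8 and 70.0 CPM in KO and 38.1, 44.9, 38.3 and 47.9 CPM in WT. Psmd1, the large scaffold of the base, measured 94.2, 92 and 80.7 CPM in KO and 46.1, 50.8, 43 and 51.9 CPM in WT. Neither showed any overlap, and the log2 differences were 0.89 ± 0.11 and 0.89 ± 0.13 (adjusted p = 1.3e-05 and 5.2e-05 by edgeR). Psmd14, the deubiquitinase that removes ubiquitin chains at the pore, measured 70.2, 52 and 51.2 CPM in KO and 39.6, 42.6, 36.7 and 32.5 CPM in WT, 1.53-fold higher (adjusted p = 0.00138 by edgeR) with no overlap. Psmd2, Psmd6 and Psmd13 were the other members called, with log2 differences of 0.47, 0.47 and 0.25. Psmd13 did not keep its call in 12 of the 15 fits without 1 library. Psmd3, Psmd4, Psmd7 and Psmd8 were not called. The ubiquitin receptor Psmd4 averaged 122 ± 8.76 CPM in KO and 122 ± 4.83 CPM in WT, a log2 difference of 0.01 (95% interval -0.18 to 0.20).

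In the ATPase ring, Psmc2 and Psmc6 rose, by 0.60 ± 0.11 and 0.38 ± 0.09 log2 units, and the other 4 subunits were not called. Psmc4 measured 71, 61 and 60.6 CPM in KO and 53.7, 61.8, 51.7 and 56.8 CPM in WT at 29 °C, with overlapping groups and a log2 difference of 0.20 (95% interval -0.02 to 0.42). Each cap holds the same number of every ATPase, and their log2 differences between KO and WT ran from 0.11 for Psmc3 to 0.60 for Psmc2.

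All 5 activator genes rose in KO at 29 °C. Psme3, the nuclear activator PA28-gamma, measured 73.7, 74.9 and 70.3 CPM in KO and 37.7, 41.8, 42.7 and 51.5 CPM in WT. The KO libraries were close together and all above the WT libraries, 1.68-fold higher (adjusted p = 2.0e-05 by edgeR). Psme1, the interferon-inducible PA28-alpha, measured 118, 91.7 and 92.8 CPM in KO and 72.9, 69.8, 64.5 and 69.4 CPM in WT, again without overlap and 1.46-fold higher (adjusted p = 0.00125 by edgeR). Its partner Psme2 rose by 0.38 ± 0.15, the near-identical copy Psme2b by 0.59 ± 0.18 and Psme4 (PA200) by 0.32 ± 0.10 log2 units. Psme2 and Psme2b share sequence, so the division of reads between them is uncertain. Without KO replicate 1 neither was called (adjusted p = 0.42 and 0.143 by edgeR), and Psme4 lost its call without KO 29 °C replicate 2 (0.0979) or KO room-temperature replicate 3 (0.0505). The inhibitor Psmf1 was not called (log2 difference 0.08).

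The assembly factors held 2 of the 3 members that fell. Psmg3 and Psmg4 form the chaperone pair that helps to arrange the alpha ring. Psmg3 measured 7.49, 8.15 and 7.76 CPM in KO and 12.3, 10.9, 10.4 and 10.8 CPM in WT at 29 °C. Every KO library was below every WT library, 1.43-fold lower (-0.51 ± 0.10 on the log2 scale, adjusted p = 9.2e-04 by edgeR). Psmg4 measured 8.82, 6.31 and 6.34 CPM in KO and 10.9, 9.17, 9.61 and 8.15 CPM in WT. Its groups overlapped through KO replicate 1, and the fall of 0.40 log2 units (adjusted p = 0.0425 by edgeR) was not called in 7 of the 15 fits without 1 library. Psmg2, which pairs with Psmg1 in an earlier alpha-ring chaperone, measured 14.1, 11.1 and 11.9 CPM in KO and 14.8, 14.7, 14.1 and 14.1 CPM in WT and was not called (adjusted p = 0.0701 by edgeR). Psmd5, a chaperone of the 19S base, rose by 0.59 ± 0.12 log2 units, while Psmd9, Psmd10 and Psmg1 were not called.

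**Figure D1:**
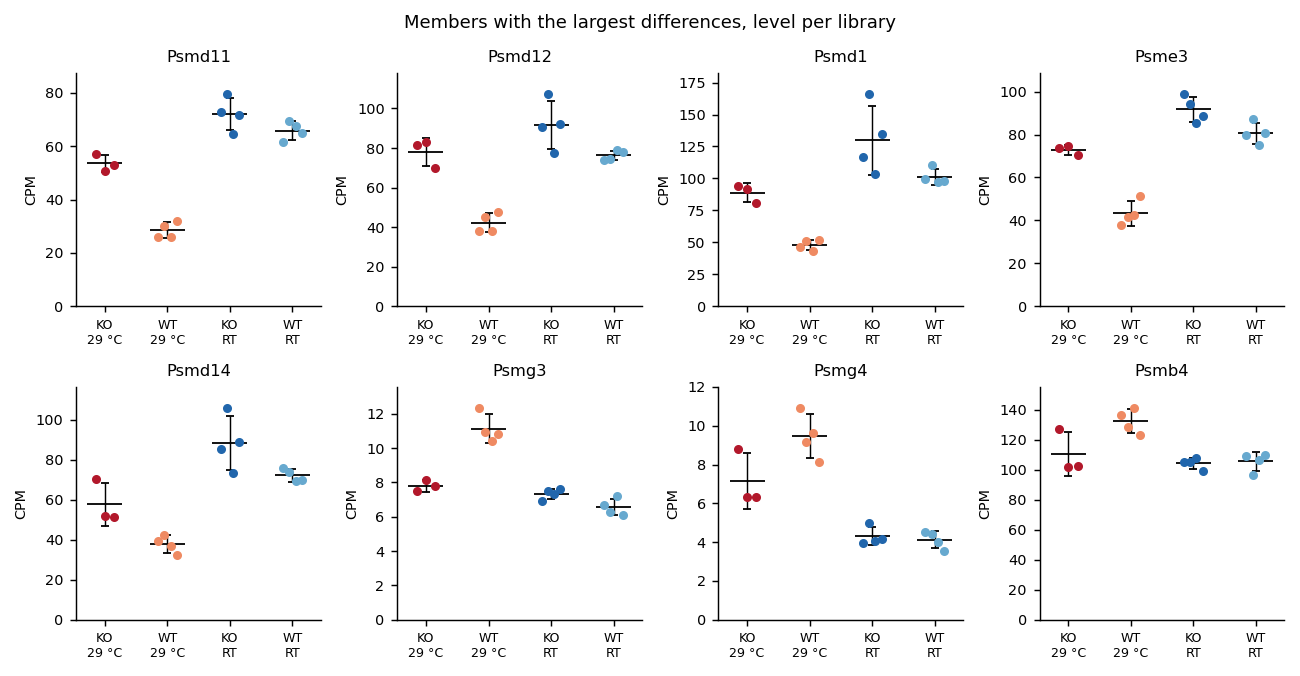
Levels in CPM (vertical axes) of 8 proteasome members in each library, by group from left to right: KO at 29 °C, WT at 29 °C, KO at room temperature (RT) and WT at room temperature. Points are libraries, lines group means and bars SD. Psmd11, Psmd12, Psmd1, Psme3 and Psmd14 have their lowest levels in WT at 29 °C, where Psmg3 has its highest.

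At room temperature, no difference between KO and WT passed the test in these genes, and edgeR called 0 of the 48 members, against 0.239% of all genes tested (36 genes, 0.0530% higher and 0.186% lower). DESeq2 and limma-voom also called 0 members. At an unadjusted p under 0.05, 10 members (20.8%) passed, all higher in KO, against 11.1% of all genes. These were Psmc1, Psmc2, Psmc4, Psmd1, Psmd2, Psmd3, Psmd6, Psmd7, Psmd12 and Psmd14, all subunits of the 19S cap. The median log2 difference was 0.14 over the members and 0.01 over all genes, and 44 of 48 members had a difference above 0, or 91.7%, against 52.0% of all genes. Psmd1 measured 117, 166, 103 and 134 CPM in KO and 99.5, 110.4, 97.4 and 98.1 CPM in WT at room temperature. KO replicates 2 and 4 stood above the other KO libraries, and the log2 difference of 0.36 ± 0.12 had an adjusted p of 0.263 by edgeR. Psmd11 measured 72.7, 79.4, 64.6 and 71.6 CPM in KO and 61.5, 69.5, 67.6 and 64.8 CPM in WT, with overlapping groups and a log2 difference of 0.13 (95% interval -0.06 to 0.32). Psmg3 measured 6.94, 7.50, 7.33 and 7.60 CPM in KO and 6.70, 6.27, 7.18 and 6.10 CPM in WT, with a log2 difference of 0.16 (-0.05 to 0.37). The summed level of the 44 members was 3753 to 4418 CPM in KO and 3643 to 3751 CPM in WT at room temperature, so the 2 ranges met without overlapping.

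In WT, the core and cap subunits were mostly lower at 29 °C than at room temperature on the TMM scale. The immunoproteasome subunits were higher. Of 48 members, 8 rose and 26 fell at 29 °C, together 70.8%, against 68.8% of all genes. Members called lower made up 54.2%, against 32.8% of all genes, and members called higher 16.7%, against 35.9%. The median log2 difference between 29 °C and room temperature was -0.36 over the members and 0.06 over all genes. By part of the complex, 6 of 7 alpha subunits, 3 of 7 constitutive beta subunits, 4 of 6 ATPases, 8 of 11 non-ATPase subunits and 2 of 5 activators fell. Psmb4, Psmb6, Psmg2, Psmg3 and Psmg4 rose, as did the 3 immunoproteasome subunits. In the same comparison 11 of 12 brown adipocyte markers were called lower, and 10 of 10 endothelial, 12 of 13 macrophage, 9 of 16 lymphocyte and 8 of 10 muscle markers higher. The muscle markers were high in WT replicate 2 at 29 °C alone, where they summed to 1123 CPM. They summed to 2.18 to 2.60 CPM in the other WT libraries at 29 °C. Mitochondrially encoded genes took 30.2 to 41.6% of counts at 29 °C and 25.2 to 27.4% at room temperature in WT. The part of these shifts in the WT housing differences was not tested.

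The decreases in WT were largest for Psmd11, Psmb7 and Psmd1. Psmd11 measured 25.9, 30.1, 25.9 and 31.9 CPM at 29 °C and 61.5, 69.5, 67.6 and 64.8 CPM at room temperature in WT, 2.31-fold lower at 29 °C (adjusted p = 1.0e-08 by edgeR). Psmb7 measured 96.6, 94.1, 72.1 and 78.4 CPM at 29 °C and 194, 188, 192 and 188 CPM at room temperature, 2.23-fold lower at 29 °C (adjusted p = 1.7e-07 by edgeR). The WT libraries of the 2 temperatures did not overlap for either gene. Psmd14 measured 39.6, 42.6, 36.7 and 32.5 CPM at 29 °C and 76, 74, 69.4 and 69.7 CPM at room temperature in WT, a log2 difference of -0.93 ± 0.12. Psmc4 measured 53.7, 61.8, 51.7 and 56.8 CPM at 29 °C and 92.2, 87, 80.7 and 93.9 CPM at room temperature, a log2 difference of -0.66 ± 0.10. Psme3 measured 37.7, 41.8, 42.7 and 51.5 CPM at 29 °C and 79.8, 87.2, 75.3 and 80.5 CPM at room temperature, a log2 difference of -0.89 ± 0.09. These 3 genes, a deubiquitinase, an ATPase and an activator, were also separated between temperatures without overlap. Their adjusted p-values were 5.3e-06, 1.4e-05 and 3.3e-07 by edgeR.

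The chaperones Psmg3 and Psmg4 went the other way in WT. Psmg4 measured 10.9, 9.17, 9.61 and 8.15 CPM at 29 °C and 4.51, 4.42, 3.99 and 3.55 CPM at room temperature in WT, 2.30-fold higher at 29 °C (adjusted p = 2.0e-06 by edgeR). Psmg3 measured 12.3, 10.9, 10.4 and 10.8 CPM at 29 °C and 6.70, 6.27, 7.18 and 6.10 CPM at room temperature, 1.70-fold higher at 29 °C (adjusted p = 3.7e-06 by edgeR). Neither gene had an overlap between the temperatures. Psmg2 rose by 0.52 ± 0.09 log2 units and Psmb4 by 0.33 ± 0.08, while Psmg1, the partner of Psmg2, fell by 0.46. Psmb1, Psmc3 and Psmd4 were among the 14 members not called, with log2 differences of 0.03, 0.01 and 0.07. The 4 calls that were lost when some single library was left out were those of Psma5, Psmb6, Psmc6 and Psmd10. For Psmb6 these were WT replicates 1 and 2 at either temperature (adjusted p = 0.0567 to 0.0877 by edgeR).

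In KO, the cap subunits Psmc4, Psmd3 and Psmd14 had the largest decreases at 29 °C. Of 48 members, 6 rose and 18 fell, together 50.0%, against 46.0% of all genes. Members called lower made up 37.5%, against 21.7% of all genes, and members called higher 12.5%, against 24.3%. The median log2 difference was -0.17 over the members and 0.04 over all genes. TMM factors were 1.08 to 1.18 in KO at 29 °C and 0.869 to 0.947 in KO at room temperature. As in WT, the size of the housing differences, and for many members the direction, rests on this scaling. The members called lower were 7 of 11 non-ATPase subunits, 2 of 6 ATPases, 3 of 7 alpha subunits, 2 of 7 constitutive beta subunits, 2 of 7 assembly factors and 2 of 5 activators. In the same comparison 12 of 13 macrophage, 16 of 16 lymphocyte, 5 of 10 endothelial and 8 of 10 muscle markers were called higher and 2 of 12 brown adipocyte markers lower, and mitochondrially encoded genes took 25.8 to 26.9% of counts at 29 °C and 22.7 to 25.2% at room temperature in KO. Their part in the KO housing differences was not tested. Psmc4 measured 71, 61 and 60.6 CPM at 29 °C and 102, 121, 91.6 and 100.3 CPM at room temperature in KO, a log2 difference of -0.69 ± 0.10 (adjusted p = 7.4e-05 by edgeR). Psmd3, a lid subunit, measured 75.7, 81.2 and 68.4 CPM at 29 °C and 114, 131, 101 and 114 CPM at room temperature, a log2 difference of -0.62 ± 0.10 (adjusted p = 1.4e-04 by edgeR). All 29 °C libraries were below all room-temperature libraries for both. Psmd12 measured 81.8, 82.8 and 70.0 CPM at 29 °C and 90.7, 107, 77.4 and 92 CPM at room temperature in KO and was not called (log2 difference -0.23, 95% interval -0.47 to 0.00).

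The members that rose at 29 °C in KO were Psme1, Psmd8, Psmg4 and the 3 immunoproteasome subunits. Psme1 measured 118, 91.7 and 92.8 CPM at 29 °C and 72.5, 71.5, 84.8 and 62.8 CPM at room temperature in KO, 1.38-fold higher at 29 °C without overlap (adjusted p = 0.00371 by edgeR). Psmd8, a lid subunit, measured 195, 163 and 145 CPM at 29 °C and 139, 139, 128 and 133 CPM at room temperature, also without overlap (log2 difference 0.31 ± 0.11, adjusted p = 0.0272 by edgeR). That call was lost without KO 29 °C replicate 1 (adjusted p = 0.185 by edgeR). Psmg4 rose by 0.74 ± 0.15 log2 units. When the 3 libraries with muscle transcripts were left out, KO replicate 1 was the only KO library at 29 °C and was assumed to vary like the other groups. The fit then called 8 members higher and 5 lower, and Psmd11, Psmb7 and Psmd14 were among those no longer called (adjusted p = 0.0592, 0.163 and 0.0893 by edgeR).

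**Figure D2:**
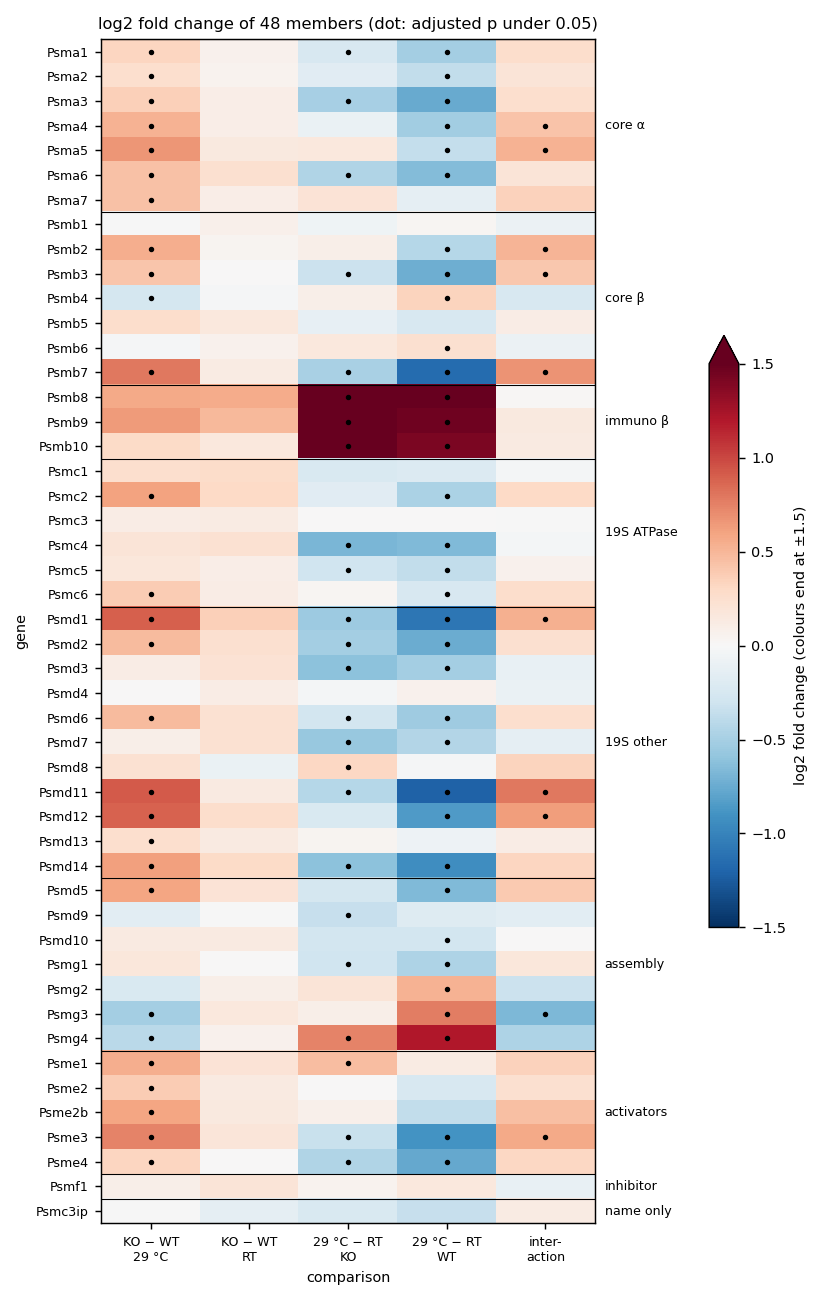
Log2 differences of the 48 members tested (rows, grouped by role) in the 5 comparisons (columns). Colours end at ±1.5 log2 units, and a dot marks an adjusted p under 0.05 by edgeR. Alpha subunits and activators carry dots in the column of KO against WT at 29 °C, the column of KO against WT at room temperature (RT) has none, and the immunoproteasome subunits stand out in both housing columns.

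The difference between KO and WT depended on housing for 10 of the 48 members. The interaction, which is the difference between KO and WT at 29 °C minus that at room temperature, was called higher for 9 and lower for 1, together 20.8%, against 28.3% of all genes tested. Members called higher made up 18.8%, against 16.0% of all genes, and Psmg3 was the member called lower, against 12.3%. The share of members called was thus below that of all genes, while the median was 0.20 over the members and 0.01 over all genes. Psmd11 had the largest interaction at 0.79 ± 0.13 log2 units (adjusted p = 4.4e-04 by edgeR), followed by Psmb7 at 0.67 ± 0.16 (0.00609) and Psmd12 at 0.62 ± 0.15 (0.00627). Psma4, Psma5, Psmb2, Psmb3, Psmd1 and Psme3 were the other members called higher. The calls of Psma5 and Psmb3 were each lost in 10 of the 15 fits without 1 library and that of Psmd1 in 7, and Psmb2 lost its call without KO 29 °C replicate 1 (adjusted p = 0.051 by edgeR). For Psmg3 the interaction was -0.68 ± 0.14 log2 units (adjusted p = 0.0026 by edgeR). No ATPase was called, and Psmc4 had an interaction of -0.03 (95% interval -0.33 to 0.27).

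The immunoproteasome subunits were higher at 29 °C in both genotypes, while 26 members in WT and 18 in KO were lower. Psmb8 and Psmb9 lie close together in the MHC region of mm10, with Tap1 between them. Psmb8 is at chr17:34197721-34201454 on the plus strand and Psmb9 at chr17:34181987-34187764 on the minus strand. Psmb10 lies at chr8:105935735-105938444 on the minus strand. Psmb8, the inducible counterpart of Psmb5, measured 118, 47.7 and 64.4 CPM in KO at 29 °C, 52.1, 51.5, 54.7 and 48.2 CPM in WT at 29 °C, 11.7, 13.9, 27.6 and 17.1 CPM in KO at room temperature, and 12.1, 8.12, 18.2 and 9.61 CPM in WT at room temperature. Psmb9, the counterpart of Psmb6, measured 40.3, 16.1 and 21.2 CPM in KO at 29 °C, 17.8, 17.2, 16.6 and 15.1 CPM in WT at 29 °C, 5.21, 8.98, 11.6 and 8.17 CPM in KO at room temperature, and 6.41, 4.55, 8.23 and 4.98 CPM in WT at room temperature. Psmb10, the counterpart of Psmb7, measured 72.5, 44 and 42.4 CPM in KO at 29 °C, 45.1, 41.4, 51.1 and 36.3 CPM in WT at 29 °C, 16.7, 14.4, 22.9 and 18.6 CPM in KO at room temperature, and 15, 13.9, 20.2 and 16.1 CPM in WT at room temperature. For each of the 3 genes every 29 °C library lay above every room-temperature library of the same genotype. Within KO, replicate 1 was the highest at 29 °C and replicate 3 at room temperature. In WT, 29 °C was 4.30-fold higher than room temperature for Psmb8, 2.76-fold for Psmb9 and 2.67-fold for Psmb10 (adjusted p = 9.3e-05, 4.4e-04 and 7.8e-06 by edgeR). In KO the factors were 4.37, 3.06 and 2.92 (adjusted p = 3.1e-04, 6.4e-04 and 2.4e-05 by edgeR). All 6 of these calls held in each of the 26 alternative settings.

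No genotype difference was called for the immunoproteasome subunits. At 29 °C the log2 differences between KO and WT were 0.57 for Psmb8 (95% interval -0.15 to 1.30), 0.64 for Psmb9 (0.01 to 1.26) and 0.29 for Psmb10 (-0.13 to 0.70). Without KO replicate 1 they were 0.12, 0.17 and -0.01. Psmb9 passed the threshold without KO replicate 2 (adjusted p = 0.026 by edgeR) and without the 3 libraries with muscle transcripts (0.0134). At room temperature the differences were 0.55, 0.49 and 0.15, with overlapping groups. The interactions were 0.02, 0.15 and 0.13, and the interval for Psmb8 was -1.0 to 1.05. Psmb9 overlaps Tap1 and Psmb8 overlaps Gm20496 on the opposite strand, so some of their reads may belong to those genes. The same holds for other members that overlap an annotated gene. Among them are Psmd1 (Gm21972) and Psmg3 (Gm26938) on the same strand, and Psma4, Psma5, Psmd13 and Psme1 on the opposite strand.

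**Figure D3:**
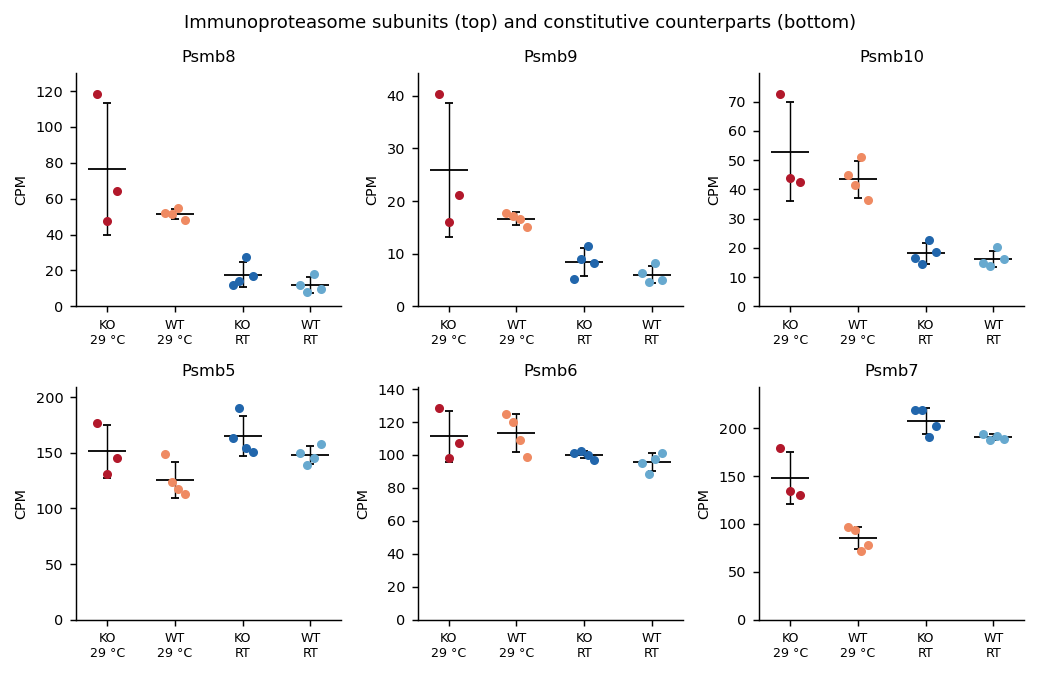
Levels in CPM (vertical axes) of the immunoproteasome subunits Psmb8, Psmb9 and Psmb10 (upper row) above their constitutive counterparts Psmb5, Psmb6 and Psmb7 (lower row). Points are libraries, lines group means and bars SD, in the order KO at 29 °C, WT at 29 °C, KO at room temperature (RT) and WT at room temperature. The upper row is high in both 29 °C groups, and in the lower row only Psmb7 drops clearly in WT at 29 °C.

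Transcripts of the constitutive counterparts were then set beside the inducible ones. Psmb5 measured 163, 190.5, 155 and 150.5 CPM in KO and 150.0, 139, 145 and 158 CPM in WT at room temperature, and its housing differences were -0.12 in KO and -0.24 in WT on the log2 scale, neither called. Psmb6 measured 101, 102, 100.2 and 97 CPM in KO and 95.1, 88.3, 97.6 and 102 CPM in WT at room temperature and rose at 29 °C in WT by 0.24 ± 0.09 log2 units. Psmb7 measured 219, 219, 191 and 203 CPM in KO and 194, 188, 192 and 188 CPM in WT at room temperature, and fell at 29 °C in both genotypes. The transcript share of the inducible subunit at each site was taken from CPM per kilobase of exon. At the Psmb5 site, Psmb8 made up 21.1% ± 5.26 (SD, n = 3) in KO and 18.6% ± 1.79 (SD, n = 4) in WT at 29 °C, and 5.64% ± 2.42 in KO and 4.28% ± 1.55 in WT at room temperature (SD, n = 4 each). At the Psmb6 site, Psmb9 made up 11.6% ± 3.53 in KO and 8.02% ± 0.271 in WT at 29 °C, and 4.75% ± 1.40 in KO and 3.58% ± 0.892 in WT at room temperature. At the Psmb7 site, Psmb10 made up 23.7% ± 2.28 in KO and 31.2% ± 4.92 in WT at 29 °C, and 7.22% ± 1.78 in KO and 7.02% ± 1.07 in WT at room temperature. All 29 °C shares lay above all room-temperature shares of the same genotype. At the Psmb7 site the KO libraries at 29 °C, at 22.4 to 26.4%, were all below the WT libraries, at 28 to 38.5%; Psmb7 itself was higher there in KO. At the Psmb6 site the order was reversed, with 8.82 to 15.6% in KO and 7.78 to 8.25% in WT. These shares of transcript were not tested and say nothing of protein.

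**Figure D4:**
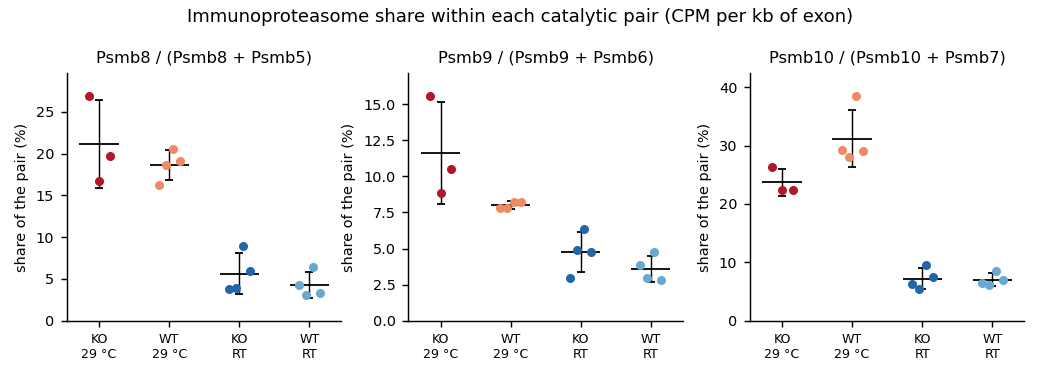
Share (percent, from CPM per kilobase of exon) of the immunoproteasome subunit in the summed transcript of each catalytic pair, by group: KO at 29 °C, WT at 29 °C, KO at room temperature (RT) and WT at room temperature. Points are libraries, lines group means and bars SD. The Psmb10 share at 29 °C is lower in KO (22.4 to 26.4%) than in WT (28 to 38.5%).

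Other genes of class I antigen processing were read beside the immunoproteasome, from a list that holds no proteasome member. In KO against WT at 29 °C, 11 of 15 rose and none fell (73.3%, against 44.7% of all genes), and none was called at room temperature. In WT, 7 rose (46.7%, against 35.9% of all genes) and 5 fell (33.3%, against 32.8%) at 29 °C. In KO, 9 rose (60.0%, against 24.3%) and 1 fell (6.67%, against 21.7%). B2m, the light chain of class I molecules, averaged 1178 ± 394 CPM in KO and 567 ± 41.9 CPM in WT at 29 °C (log2 difference 1.05 ± 0.18, adjusted p = 2.7e-04 by edgeR). It averaged 325 ± 39.8 CPM in KO and 254 ± 47.2 CPM in WT at room temperature, and rose at 29 °C in both genotypes. H2-K1, a class I heavy chain, rose at 29 °C by 1.26 ± 0.15 in KO and 1.06 ± 0.15 in WT. Leucocyte markers moved with these genes. Of 16 lymphocyte markers, 9 rose and none fell at 29 °C in WT and 16 rose in KO; of 13 macrophage markers, 12 rose and none fell in WT. The summed lymphocyte markers were 37.6 to 53.3 CPM in KO and 11.3 to 14.7 CPM in WT at 29 °C, and 5.47 to 11.5 and 4.84 to 6.45 CPM at room temperature. The macrophage markers summed to 93.2 to 190.3 CPM in KO and 106 to 143 CPM in WT at room temperature, below both 29 °C groups. Their part in the immunoproteasome levels was not tested.

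Proteins that bind the proteasome but fall outside the name rule split between the directions. Of 17 tested, 7 rose (41.2%, against 24.7% of all genes) and 6 fell (35.3%, against 20.0%) in KO against WT at 29 °C. At 29 °C in WT, 4 rose (23.5%, against 35.9%) and 9 fell (52.9%, against 32.8%). Adrm1, a ubiquitin receptor of the cap, averaged 75.8 ± 7.20 CPM in KO and 48.9 ± 4.71 CPM in WT at 29 °C, and 119.9 ± 12.6 CPM in KO and 102 ± 3.52 CPM in WT at room temperature. It rose in KO at 29 °C by 0.63 ± 0.10 log2 units (adjusted p = 1.2e-04 by edgeR). Usp14, a deubiquitinase of the cap, rose by 0.66 ± 0.12, and Ube3c, a ubiquitin ligase of the proteasome, by 0.48 ± 0.11. All 3 fell at 29 °C in WT, Adrm1 by 1.06 log2 units. Pomp, the maturation factor of the core, averaged 66.7 ± 10.5 CPM in KO and 65.9 ± 0.916 CPM in WT at 29 °C and was not called in any comparison.

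Upstream of the complex, a list of 14 genes held ubiquitin, its E1 enzymes, the p97 segregase and its cofactors, ubiquitin ligases and Bag6. In KO against WT at 29 °C, 8 of the 14 were called, or 57.1%, against 44.7% of all genes. The 4 called higher and the 4 called lower were 28.6% each, against 24.7% and 20.0% of all genes. Uba1, the main E1 enzyme, rose by 0.80 ± 0.10, Vcp, which encodes p97, by 0.62 ± 0.10 and its cofactor Ufd1l by 0.61 ± 0.08 log2 units. Among those that fell, named after their values were seen, were Rps27a, which encodes ubiquitin fused to a ribosomal protein, and the ubiquitin ligases Stub1 and Huwe1, by 0.33, 0.51 and 0.51 log2 units. At 29 °C in WT, Uba1, Vcp and Ufd1l fell by 1.08, 0.76 and 0.81. Of 12 genes for transcription factors of proteasome genes and their processing, 2 rose and 2 fell in KO against WT at 29 °C, or 33.3% called, against 44.7% of all genes, and the values that follow are those of single genes. Nfe2l1 measured 409, 416 and 339 CPM in KO at 29 °C, 294, 263, 220.2 and 269 CPM in WT at 29 °C, 537, 520.3, 482 and 443 CPM in KO at room temperature, and 481, 569.6, 523 and 515 CPM in WT at room temperature. WT libraries at 29 °C were the lowest, and the KO libraries at 29 °C all lay above them. The log2 difference between KO and WT at 29 °C was 0.57 ± 0.11 (adjusted p = 6.1e-04 by edgeR) and the interaction 0.64 ± 0.15 (0.00488). Ngly1, the deglycosylase that activates NFE2L1, rose by 0.53 ± 0.11 in KO at 29 °C and fell by 1.0 at 29 °C in WT. Mafk, a small Maf partner of NFE2L1, fell by 0.78 in KO at 29 °C and rose by 1.56 ± 0.16 at 29 °C in WT. Nfe2l2, which encodes NRF2, averaged 83.5 ± 3.34 CPM in KO and 82.9 ± 13.9 CPM in WT at 29 °C and was not called in that comparison. None of these lists had a gene called in KO against WT at room temperature.

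The promoters were read for the elements that these factors are known to bind. A RefSeq window of 250 bases before to 50 bases after the start, on the GRCm38.p6 build, was at hand for 42 of the 50 members, and both strands were searched for 4 letter strings, none of which contains another. The antioxidant response element (TGACNNNGC), bound by NFE2L1 and NRF2, was present in 6 of 37 members outside the immunoproteasome (16.2%), against 14% of all genes. Its carriers were Psmb5, Psmb6, Psmc6, Psmd9, Psmd12 and Psme4, of which Psmc6, Psmd12 and Psme4 rose in KO at 29 °C. Of all 44 members outside the immunoproteasome, 25 (56.8%) rose in that comparison. These 44 include the carriers and members without a window, and whether carriers rose more often was not tested. Psmb1, Psmb2 and Psmb7 were among the members without a window. The CCAAT box was present in 12 of 37 (32.4%), against 41.1% of all genes. The interferon-stimulated response element (GAAA, any 2 bases, GAAA) was present in 5 of 37 (13.5%), against 3.99% of all genes. Its carriers were Psmb3, Psmd4, Psmd9, Psme1 and Psmg4. In KO against WT at 29 °C Psmb3 and Psme1 rose, Psmg4 fell, and Psmd4 and Psmd9 were not called. The element was present in 0 of the 3 immunoproteasome subunits. The gamma-activated site (TTCNNNGAA) was present in 2 of 37 of these members (5.41%) and in Psmb8, against 9.55% of all genes. The stretches below show the match to TGACNNNGC, in capitals and on either strand, for a member with a large difference (Psmd12), an ATPase that rose (Psmc6) and the catalytic subunits that were not called (Psmb5 and Psmb6). Psmd11, the member with the largest difference, is shown because its window had no match, and Psmb8 with its TTCNNNGAA match in capitals. All read 5′ to 3′ on the strand of the gene, and a match is not a shown binding site.
Psmd12 (chr11:107479278-107479397, plus strand): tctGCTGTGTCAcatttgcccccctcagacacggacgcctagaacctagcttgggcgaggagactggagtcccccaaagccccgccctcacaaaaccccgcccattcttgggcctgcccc
Psmc6 (chr14:45329574-45329693, plus strand): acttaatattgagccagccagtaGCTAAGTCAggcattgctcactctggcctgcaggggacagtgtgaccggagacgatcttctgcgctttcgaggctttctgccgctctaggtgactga
Psmb5 (chr14:54618026-54618125, minus strand): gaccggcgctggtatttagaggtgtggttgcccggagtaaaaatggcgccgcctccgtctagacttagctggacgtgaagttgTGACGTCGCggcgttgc
Psmb6 (chr11:70525237-70525356, plus strand): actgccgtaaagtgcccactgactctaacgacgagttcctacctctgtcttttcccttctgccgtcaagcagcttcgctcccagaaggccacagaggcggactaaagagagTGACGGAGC
Psmd11 (chr11:80428495-80428614, plus strand): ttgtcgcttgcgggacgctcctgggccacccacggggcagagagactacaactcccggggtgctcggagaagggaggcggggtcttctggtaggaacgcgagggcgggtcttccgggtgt
Psmb8 (chr17:34198087-34198116, plus strand): gtcctccgctgTTCCCAGAAgatgcccccc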

How the data were processed

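Bulk RNA from brown adipose tissue was sequenced, and the table as deposited by the authors holds estimated counts (RSEM expected counts) per gene for 15 libraries. Per the series' design text, the authors mapped reads to mm10 with STAR 2.7.10a, quantified with RSEM 1.2.28 and compared groups with DESeq2, given as version 1.3.40. Strandedness and annotation version are not given in the sources used here. Counts were rounded to whole numbers (7.26% of entries had decimals). Genes were kept by edgeR's filterByExpr with a minimum count of 10. TMM factors and a robust quasi-likelihood fit of 1 model with 4 groups (edgeR 4.0.16, R 4.3.3, 11 residual degrees of freedom) gave 5 contrasts, with Benjamini-Hochberg adjustment over 15083 genes. The fit was tested on simulated data. Alternatives used DESeq2 1.42.0, limma 3.58.1, other filters and scalings, and fits without libraries. Levels per kilobase used GENCODE M21 exon unions. No 2 libraries of a group agreed within sampling noise.

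The members and gene lists were chosen with earlier results of these data known. Full values are given for the catalytic subunits and for the members with the largest changes among those called in each comparison. For the other lists, up to 3 genes with the smallest p in KO against WT at 29 °C or in the WT housing comparison were named, except for genes not reported here. Nfe2l1, Adrm1 and Pomp were named by choice, and Nfe2l2 after its values were seen. Intervals cover the spread between libraries.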

Additional observations from a re-analysis of the deposited data

Results flagged for a closer look

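Dixon's test at the 95% level was applied to the 4-library groups of all members tested, 144 groups in all, and marked 9 of them; chance marks about 1 in 20 groups. Psmc6 had 104.4 CPM in KO replicate 2 at room temperature, with the other 3 KO libraries at 88.4 to 89.8 CPM. Psmd10, a chaperone of the 19S base, had 15.8 CPM in KO replicate 3 at room temperature, with the others at 20.6 to 21.5 CPM. In WT at 29 °C, replicate 3 stood low for Psmd2 (103.9 CPM, others 114.1 to 115.3) and Psmd5 (12.7 CPM, others 15.1 to 15.4). In WT at room temperature, replicate 2 stood high for Psmd1 (110.4 CPM, others 97.4 to 99.5) and Psme4 (108.0 CPM, others 92.7 to 94.5). There, replicate 1 stood high for Psmc6 (89.2 CPM, others 84.3 to 84.9) and Psmc3ip (1.94 CPM, others 1.34 to 1.37), and replicate 3 for Psme2 (132 CPM, others 107 to 111).

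The difference between KO and WT changed with housing for 10 of 48 members by edgeR's test of the interaction, or 20.8%, against 28.3% of all genes. The interaction (log2, 29 °C minus room temperature) was 0.43 for Psma4, 0.52 for Psma5, 0.51 for Psmb2, 0.41 for Psmb3, 0.67 for Psmb7, 0.53 for Psmd1, 0.79 for Psmd11, 0.62 for Psmd12, 0.56 for Psme3 and -0.68 for Psmg3. These genes belong to the core (Psma and Psmb), the cap (Psmd), an activator (Psme3) and an alpha-ring chaperone (Psmg3).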

How the results depend on the processing

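Across 26 settings, 6192 values of single genes were recomputed. Of these, 5951 kept their side of the threshold, 184 fell below it and 57 rose above it. Among values called in the main fit or in the alternative, 0 turned direction. Turns of direction among values called in neither were not counted. Leaving out 1 library gave 22 to 27 members called in KO against WT at 29 °C, 0 to 0 in KO against WT at room temperature, 31 to 37 for housing in WT, 21 to 27 for housing in KO and 7 to 14 for the interaction. The same fits called 5374 to 6725, 5 to 60, 9781 to 10529, 5490 to 7273 and 3277 to 4563 genes in all. Without the 3 libraries with muscle transcripts, 13 members and 4129 genes were called for housing in KO, 4229 genes in KO against WT at 29 °C and 13 at room temperature. Only 7 libraries in the fit left 17 members called in KO against WT at 29 °C. At room temperature DESeq2 called 237 genes, an adjusted p under 0.01 left 4, and leaving out KO replicates 2 and 4 left 5; scaling by RLE called 2 higher and 28 lower, against 8 higher and 28 lower with TMM. For the interaction, an adjusted p under 0.01 left 6 members and 2304 genes. The cause of these changes was not tested. The replicate block called 27, 0, 34, 24 and 9 members in the 5 comparisons (KO against WT at 29 °C and at room temperature, housing in WT and in KO, interaction). Replicate numbers did not pair the libraries: 6 of 21 same-numbered pairs had a correlation over 0.1 (range -0.26 to 0.32). Without division by exon length, the immunoproteasome shares were 32.5%, 29.3%, 9.71%, 7.46% at the Psmb5 site, 18.2%, 12.9%, 7.77%, 5.92% at the Psmb6 site and 26%, 33.9%, 8.09%, 7.86% at the Psmb7 site (KO and WT at 29 °C, KO and WT at room temperature). Psma8 and Psmb11, at 0 to 6 counts a library, could not be compared at this depth.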
